A study of Mus musculus with 6 samples.

Results

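The genes described here were *Trp53*, which encodes the transcription factor p53, and 9 genes that p53 is known to activate directly: *Cdkn1a*, *Mdm2*, *Ccng1*, *Phlda3*, *Eda2r*, *Zmat3*, *Sesn2*, *Trp53inp1* and *Fas*. Their rows were found by gene symbol in a table of FPKM values, and all 10 were among its 54532 genes. FPKM here is the number of fragments of a gene relative to its length and to a scaling factor of the library. RNA was sequenced from mouse testes at 5 days postpartum (dpp). Controls (Ctrl) and conditional knockouts (cKO) gave 3 testis samples each. In the cKO animals, which carried 1 floxed and 1 deleted allele (*Srsf1* Fl/del), the promoter of the germ-cell gene *Vasa* drove the Cre recombinase that deletes *Srsf1*, and the full genotype of the Ctrl animals was not given in the sources used here. SRSF1 is a splicing factor that binds pre-mRNA.

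In unstressed cells p53 protein is made continuously and degraded, because the ubiquitin ligase MDM2 marks it for destruction. After DNA damage or other stress p53 is released from MDM2, binds a pair of decamers in its target genes and activates them, so that the cell cycle stops or the cell dies. Much of this control acts on the protein, which the *Trp53* transcript level does not measure, and for that reason target transcripts are commonly read as a sign of p53 activity. In the testis p53 is best known for its part in the death of germ cells after damage. The comparison asked whether transcripts of the p53 pathway differed between Ctrl testes and testes whose germ cells lack *Srsf1*.

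The promoters of the members show where the p53 decamer lies close to the gene start. RefSeq promoter sequences of mouse build GRCm38.p6, which span the start of a gene and the bases just upstream of it, were found for 8 of the 10 members, all but *Zmat3* and *Trp53inp1*. The p53 consensus decamer was searched on both strands with no mismatch allowed, and because the consensus is its own reverse complement a single search covers both. It was present in 4 of the 8 promoters, those of *Trp53*, *Cdkn1a*, *Mdm2* and *Ccng1*, against 9.55% of the 27025 gene symbols in the promoter table. The stretches that hold it are printed 5′ to 3′ on the strand of the gene, with the decamers in capitals, and *Phlda3* is shown beside them because its transcript differed most clearly between groups while its promoter held no decamer.
Trp53 chr11:69580244-69580333, plus strand: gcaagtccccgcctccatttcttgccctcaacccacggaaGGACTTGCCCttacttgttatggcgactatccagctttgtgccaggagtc
Cdkn1a chr17:29090859-29090978, plus strand: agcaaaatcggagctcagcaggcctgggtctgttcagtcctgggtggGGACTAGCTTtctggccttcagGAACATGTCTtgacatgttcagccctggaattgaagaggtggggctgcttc
Mdm2 chr10:117710895-117710984, minus strand: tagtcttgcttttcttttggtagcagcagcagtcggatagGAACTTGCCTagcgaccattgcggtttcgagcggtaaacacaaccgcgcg
Ccng1 chr11:40755422-40755511, minus strand: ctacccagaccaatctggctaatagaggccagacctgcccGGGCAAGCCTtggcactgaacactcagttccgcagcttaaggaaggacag
Phlda3 chr1:135765965-135766084, plus strand: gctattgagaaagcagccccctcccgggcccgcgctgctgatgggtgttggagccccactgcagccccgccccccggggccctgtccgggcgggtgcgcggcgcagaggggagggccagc
Only the *Cdkn1a* stretch held a pair of decamers without mismatch and with at most 13 bases between them. This arrangement was found in 24 of the 32851 promoter windows of the table (0.0731%). *Cdkn1a* had 2 promoter windows, and 1 of them held both decamers. The *Cdkn1a* decamers lay at bases -73 to -64 and -51 to -42 relative to the RefSeq gene start of that window. The *Trp53* decamer lay at -75 to -66, the *Mdm2* decamer at -186 to -177 and the *Ccng1* decamer at -185 to -176. A match in these letters is a description of the sequence, and binding of p53 was not measured.

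The libraries held between 15448191 and 18964743 reads, recovered from the FPKM values, and replicates correlated with a Pearson coefficient of 0.988 to 0.991 across genes on the log2 scale. The study's methods name 3 biological replicates per condition, and the reads of each replicate pair differed by more than counting noise (chi-square divided by its degrees of freedom, 9.39 or more). *Srsf1* itself was at 82.1, 89.1 and 88.4 FPKM in the Ctrl testes 1, 2 and 3, while the cKO testes 1, 2 and 3 stood at 45.1, 46.3 and 51.6 FPKM, a log2 fold change of -0.85 (SE 0.087, limma adjusted p = 0.058) with no overlap between groups. Cre acts in germ cells and whole testes were sequenced, so the *Srsf1* RNA left in cKO cannot be assigned to a cell type. The extraction note in the labels names another organ, the retina, whereas markers of Sertoli cells, the somatic cells that nurse the germ cells, summed to between 2491 and 3904 FPKM in the 6 samples and markers of the steroid-making Leydig cells to between 688.8 and 1032 FPKM. Of 20 germ-cell markers, 19 averaged 0.5 FPKM or more, the level from which genes were tested, and the cKO samples lay below all Ctrl samples for 18 of these, with *Kit* the exception and *Dppa3* below that level. The germ-cell markers summed to 201.2, 492.0 and 215.1 FPKM in Ctrl 1, 2 and 3 and to 51.2, 99.9 and 66.2 FPKM in cKO 1, 2 and 3, so Ctrl 2 stood above the other Ctrl samples.

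None of the 10 members passed the test, and neither did any other tested gene, *Srsf1* included. The members' differences between groups had both signs. The test was limma on log2(FPKM + 1) over the 16206 genes that averaged 0.5 FPKM or more, two-sided, with Benjamini-Hochberg adjustment over all of them and a threshold of 0.05, and all 10 members were among these genes. At this threshold limma called 0 of the 10 members lower in cKO, against 0% of all tested genes, and 0 of the 10 higher, against 0%. As no gene was called, this count does not set the members apart from other genes. At an unadjusted p under 0.05, limma counted 0 members lower, where 9.31% of all tested genes were, and 2 members higher, *Phlda3* and *Fas*, where 6.6% of all tested genes were. The groups did not overlap in FPKM for 1 member that was lower in cKO, *Mdm2*, against 12.8% of all tested genes, and for 3 that were higher, *Trp53*, *Phlda3* and *Fas*, against 10.3%. With 10 genes these are small counts. The log2 fold changes of the members ran from -0.41 to 0.58 with a median of 0.07, beside a median of 0.0027 over all tested genes, and 6 were positive and 4 negative. Because whole testes were sequenced, fewer cells of a type and less RNA per cell cannot be told apart in any value given here.

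**Figure D1:**
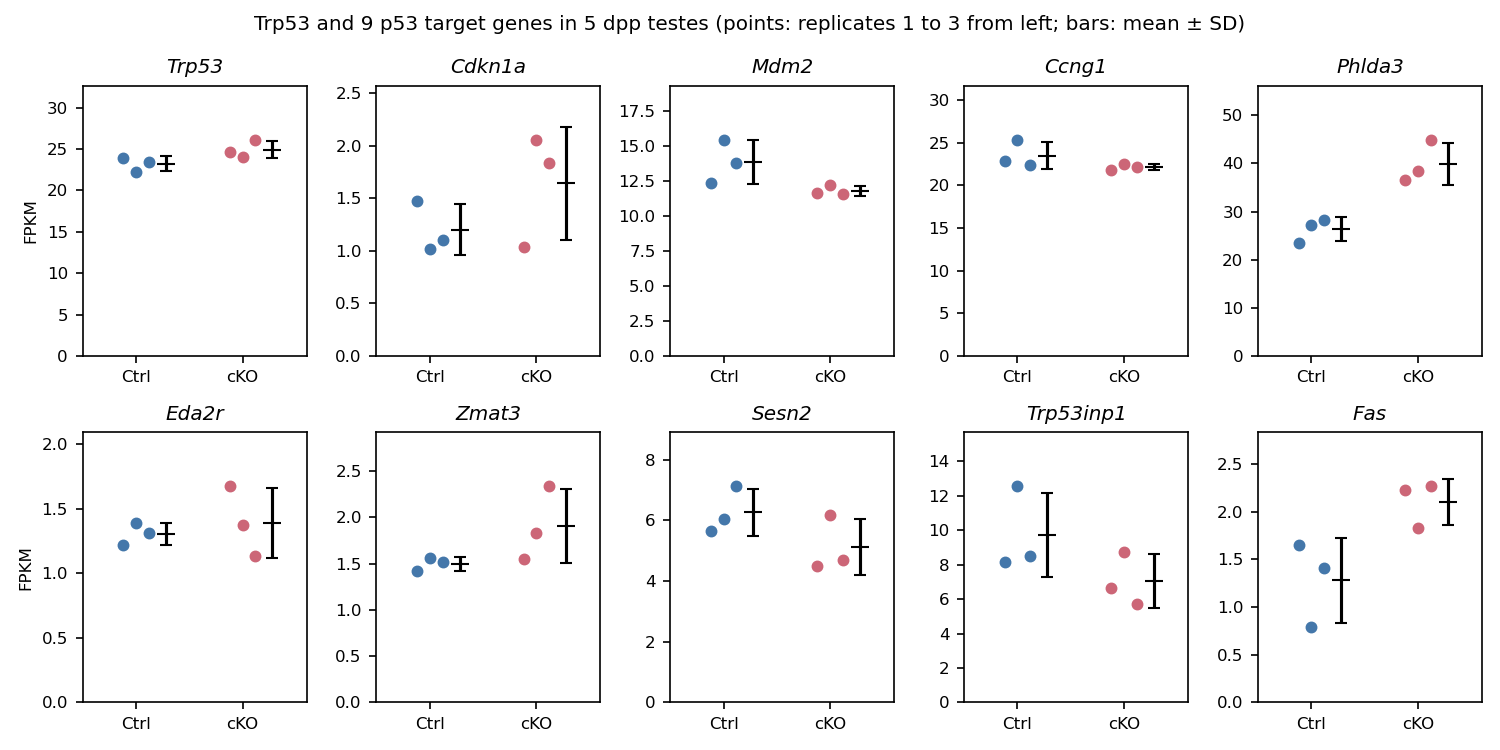
FPKM of *Trp53* and 9 p53 target genes in 3 Ctrl (blue) and 3 cKO (red) testes at 5 dpp, each axis starting at 0, with points for replicates 1 to 3 from left to right and bars for the mean ± SD. The cKO samples sit above all Ctrl samples for *Trp53*, *Phlda3* and *Fas* and below them for *Mdm2*, and the groups overlap for the other 6 genes.

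FPKM is scaled to gene length, so levels can be set side by side between genes. Over the 6 samples the mean level was highest for *Phlda3* (33.1 FPKM), followed by *Trp53* (24.05 FPKM) and *Ccng1* (22.8 FPKM), and then by *Mdm2* (12.8 FPKM), *Trp53inp1* (8.39 FPKM) and *Sesn2* (5.69 FPKM). *Phlda3* also had the highest Ctrl mean, 26.3 FPKM beside 23.5 FPKM for *Ccng1* and 23.2 FPKM for *Trp53*. Single Ctrl values of *Phlda3*, *Trp53* and *Ccng1* overlapped, so that their order in Ctrl was not larger than the spread. *Mdm2* was above *Trp53inp1* in every sample, although their Ctrl ranges overlapped. *Zmat3*, *Fas*, *Cdkn1a* and *Eda2r* formed a low group at means of 1.35 to 1.70 FPKM, and all 4 overlapped across the 6 samples. A much used marker of p53 activity, *Cdkn1a*, was among the weakest, higher than 19.8% of the tested genes, whereas *Phlda3* was higher than 89.2% of them.

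*Trp53* (ENSMUSG00000059552, chr11:69580359-69591873, plus strand, GRCm38) was close to equal in both groups. Its levels were 23.9, 22.2 and 23.5 FPKM across Ctrl 1 to 3 in turn, beside 24.6, 24.1 and 26.1 FPKM across cKO 1 to 3. All cKO samples were above all Ctrl samples, but the gap between the groups was 0.120 FPKM. The means were 23.2 ± 0.911 and 24.9 ± 1.05 FPKM (SD, n = 3 each), a log2 fold change of 0.10 (SE 0.077, limma adjusted p = 0.562). The 95% interval of the difference ran from 0.945-fold to 1.21-fold on the FPKM + 1 scale, on which all fold intervals below are given. Between 1564 and 1708 reads lay behind each value, and 3.95% of the 50-base stretches of the *Trp53* transcripts also occurred in transcripts of another gene, with the pseudogene *Trp53-ps* listed at 0.319 to 0.875 FPKM. The other genes of the p53 family were below the level from which genes were tested. *Trp63*, which encodes the p63 that guards oocytes, averaged 0.389 ± 0.0317 FPKM in Ctrl testes beside 0.422 ± 0.108 FPKM in cKO testes (SD, n = 3 each). *Trp73* averaged 0.0454 and 0.0417 FPKM, from 2 to 6 reads a sample.

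*Mdm2*, whose product ubiquitinates p53 and which p53 activates in turn, was lower in the mean of the cKO samples. *Mdm2* (ENSMUSG00000020184, chr10:117688875-117710758, minus strand) was at 12.3, 15.4 and 13.8 FPKM in Ctrl 1 to 3, against 11.6, 12.2 and 11.6 FPKM in cKO 1 to 3. The highest cKO sample was 0.145 FPKM below the lowest Ctrl sample, and the cKO values lay close together. The cKO mean of 11.8 ± 0.345 FPKM was 85.2% of the Ctrl mean of 13.9 ± 1.55 FPKM (SD, n = 3 each). Its log2 fold change was -0.21 (SE 0.097, limma adjusted p = 0.350), with an interval from 0.738-fold to 1.01-fold, and without Ctrl 2 it was -0.13.

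The cell cycle genes among the members did not separate the groups. *Cdkn1a* (ENSMUSG00000023067, chr17:29090976-29100727, plus strand) encodes p21, the inhibitor of cyclin-dependent kinases through which p53 stops the cell cycle. It was at 1.48, 1.02 and 1.10 FPKM in the Ctrl testes 1, 2 and 3, while the cKO testes 1, 2 and 3 stood at 1.04, 2.06 and 1.84 FPKM. In 2 cKO samples, *Cdkn1a* was above every Ctrl sample, while cKO 1 was at the level of the lowest Ctrl samples. The means were 1.2003 ± 0.244 and 1.64 ± 0.537 FPKM (SD, n = 3 each), and the log2 fold change was 0.25 (SE 0.182, limma adjusted p = 0.535). With 58 to 122 reads a sample the interval was wide, from 0.884-fold to 1.599-fold. The log2 difference in *Cdkn1a* was 0.13 without cKO 2 and 0.43 without cKO 1, and 0.43 with limma voom on the recovered reads. *Cdkn1a* shared 8.49% of its 50-base stretches with transcripts of another gene, and the antisense gene *AC167363.2* inside it was listed at no more than 0.173 FPKM.

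*Ccng1* (ENSMUSG00000020326, chr11:40748552-40755311, minus strand) encodes cyclin G1, which recruits a phosphatase to MDM2. Its levels were 22.8, 25.3 and 22.4 FPKM across Ctrl 1 to 3 in turn, beside 21.8, 22.5 and 22.2 FPKM across cKO 1 to 3. The groups overlapped and apart from Ctrl 2 all samples lay within a narrow band. The log2 fold change was -0.08 (SE 0.080, limma adjusted p = 0.665), and -0.03 without Ctrl 2. As a well-measured gene, with 1204 to 1694 reads a sample, *Ccng1* had a narrow interval of 0.832-fold to 1.08-fold. The members with a decamer in the promoter had log2 fold changes of both signs, 0.25 for *Cdkn1a* and 0.10 for *Trp53* beside -0.08 for *Ccng1* and -0.21 for *Mdm2*, and none passed the test.

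*Phlda3* had the clearest difference of the 10 members. *Phlda3* (ENSMUSG00000041801, chr1:135766119-135769136, plus strand) encodes a small protein with a pleckstrin homology domain that competes with the kinase AKT for membrane lipids and so weakens survival signals. It was at 23.5, 27.2 and 28.3 FPKM in Ctrl 1 to 3, against 36.6, 38.4 and 44.9 FPKM in cKO 1 to 3. The lowest cKO sample was 8.34 FPKM above the highest Ctrl sample, a gap larger than the SD of either group. The means were 26.3 ± 2.53 and 39.97 ± 4.35 FPKM (SD, n = 3 each), which is 1.52-fold. Its log2 fold change was 0.58 (SE 0.111, 95% interval 0.32 to 0.84), and limma's adjusted p of 0.105 did not pass the threshold. Among the 13204 protein-coding genes tested alone, limma's adjusted p was 0.044, in a fit that called 0.28% of genes higher in cKO and 1.33% lower, and over all alternatives it ran from 0.044 to 0.288. Its values came from 592 to 1081 reads a sample, and no 50-base stretch was shared with another gene.

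The receptors among the members gave unlike values. *Fas* (ENSMUSG00000024778, chr19:34290659-34327770, plus strand) encodes the death receptor that triggers apoptosis when it binds its ligand. It was at 1.65, 0.787 and 1.41 FPKM in the Ctrl testes 1, 2 and 3, while the cKO testes 1, 2 and 3 stood at 2.22, 1.83 and 2.26 FPKM. The groups did not overlap, with a gap of 0.182 FPKM, and Ctrl 2 was by far the lowest sample. The means were 1.28 ± 0.443 and 2.11 ± 0.241 FPKM (SD, n = 3 each), a 1.64-fold difference that was 1.38-fold without Ctrl 2. On the log2 scale the difference in *Fas* was 0.46 (SE 0.169, limma adjusted p = 0.262), 0.30 without Ctrl 2 and 0.79 with limma voom on the recovered reads. Only 27 to 63 reads a sample lay behind these values, the fewest of any member.

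*Eda2r* (ENSMUSG00000034457, chrX:97333840-97377216, minus strand) encodes a receptor for ectodysplasin A2 of the tumour necrosis factor receptor family. It was at 1.22, 1.39 and 1.31 FPKM across Ctrl 1 to 3 in turn, beside 1.67, 1.37 and 1.13 FPKM across cKO 1 to 3. The cKO samples held both the highest and the lowest value. The log2 fold change of *Eda2r* was 0.05 (SE 0.128, limma adjusted p = 0.886), with an interval of 0.839-fold to 1.27-fold, and it was -0.035 when cKO 1 was left out.

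The stress-response members pointed in different directions and none separated the groups. *Zmat3* (ENSMUSG00000027663, chr3:32334792-32366014, minus strand) encodes a zinc finger protein that binds RNA. It was at 1.42, 1.56 and 1.51 FPKM in Ctrl 1 to 3, against 1.55, 1.83 and 2.33 FPKM in cKO 1 to 3. The Ctrl samples lay close together, and cKO 1 fell among them. The log2 fold change of *Zmat3* was 0.21 (SE 0.131, limma adjusted p = 0.473), with an interval of 0.935-fold to 1.43-fold, and it was 0.11 without cKO 3.

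*Sesn2* (ENSMUSG00000028893, chr4:132492032-132510501, minus strand) encodes sestrin 2, which senses leucine and restrains the growth kinase complex mTORC1. It was at 5.64, 6.03 and 7.11 FPKM in the Ctrl testes 1, 2 and 3, while the cKO testes 1, 2 and 3 stood at 4.50, 6.19 and 4.68 FPKM. In cKO 1 and cKO 3 *Sesn2* was below every Ctrl sample, and cKO 2 lay within the Ctrl range. The log2 fold change was -0.25 (SE 0.135, limma adjusted p = 0.415), with an interval of 0.674-fold to 1.05-fold.

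*Trp53inp1* (ENSMUSG00000028211, chr4:11156431-11174379, plus strand) encodes a stress-induced protein that acts in p53 activation and in autophagy. It was at 8.16, 12.5 and 8.48 FPKM across Ctrl 1 to 3 in turn, beside 6.66, 8.76 and 5.73 FPKM across cKO 1 to 3. Ctrl 2 and cKO 2 were the highest of their groups, and the groups overlapped because cKO 2 reached the level of the lower Ctrl samples. The cKO mean of *Trp53inp1* was 7.05 ± 1.55 FPKM, or 72.5% of the Ctrl mean of 9.73 ± 2.45 FPKM (SD, n = 3 each). Its log2 fold change was -0.41 (SE 0.193, limma adjusted p = 0.358), with an interval of 0.550-fold to 1.03-fold, and it was -0.23 without Ctrl 2. It was the most negative difference of the members, but without Ctrl 2 that of *Sesn2* was, at -0.27.

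**Figure D2:**
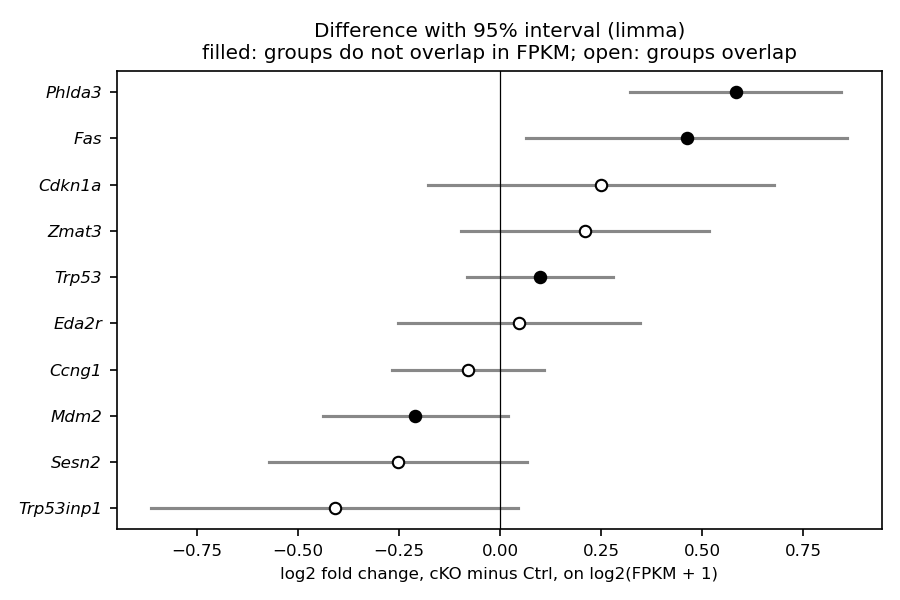
Log2 fold change, cKO minus Ctrl, of each member on the log2(FPKM + 1) scale, with its 95% interval from limma, where filled points mark genes whose groups did not overlap in FPKM. The intervals of *Phlda3* (0.32 to 0.84) and *Fas* (0.07 to 0.86) lie above 0 and the other 8 include it.

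Ctrl 2, the library with the high germ-cell markers, was the highest of the 6 samples for *Mdm2*, *Ccng1* and *Trp53inp1* and the lowest for *Trp53*, *Cdkn1a* and *Fas*. Over all tested genes Ctrl 2 was the highest sample in 25.0% and the lowest in 24.9%. The log2 fold change of *Phlda3* was 0.61 without Ctrl 2. Without that library limma called 0 of the members, beside 15 of the 16206 tested genes lower and 3 higher. The part of cell composition in the members' values was not tested. Leydig markers stood higher in cKO, at summed levels of 929.1 to 1032 FPKM against 688.8 to 885.8 FPKM in Ctrl, with 4 of 10 markers higher without overlap. *Hsd3b1* and *Hsd17b3* made up most of this sum, and *Hsd3b1* overlapped between groups. Of the 10 markers, 8 had a positive and 2 a negative log2 fold change. Peritubular markers, of which *Acta2* made up most of the sum, summed to 520.7 to 532.6 FPKM in Ctrl and 327.7 to 510.7 FPKM in cKO, but only 2 of 6 (*Acta2* and *Myh11*) were lower without overlap, and 1 (*Des*) was higher. The summed levels of Sertoli markers (2491 to 3852 FPKM in Ctrl and 3440 to 3904 FPKM in cKO), macrophage markers (100.7 to 138.0 and 119.5 to 194.7 FPKM) and red cell genes (437.6 to 697.1 and 525.5 to 1479 FPKM) overlapped between groups. Of the 15 Sertoli markers, 3 (*Cldn11*, *Kitl* and *Aard*) were lower in cKO without overlap and 2 (*Amh* and *Gdnf*) were higher. Over all tested genes, 12.8% were lower and 10.3% higher without overlap.

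A further 26 known p53 targets were divided evenly about 0. All 26 were tested, 13 had a negative and 13 a positive log2 fold change, and the median was 0.0059. Limma called 0 of them in either direction, beside 0% of all tested genes. At an unadjusted p under 0.05 it counted 2 lower, *Aen* and *Ppm1d*, where 9.31% of all tested genes were. It counted 2 higher, *Gadd45a* and *Bbc3*, where 6.6% were. The groups did not overlap for 4 genes that were lower in cKO (15.4% of the list, beside 12.8% of all tested genes) and 2 that were higher (7.69%, beside 10.3%), shares close to those over all genes. Promoters were found for 20 of these targets and 11 of them held the p53 decamer.

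*Gadd45a*, a growth arrest and DNA repair gene and a textbook p53 target, had the largest difference among the targets without overlap. It was at 4.76, 3.93 and 4.17 FPKM in Ctrl 1 to 3, against 6.12, 6.28 and 6.24 FPKM in cKO 1 to 3. The cKO samples were almost equal and all above the Ctrl samples, a 1.45-fold difference in means and a log2 fold change of 0.45 (SE 0.093, limma adjusted p = 0.111). *Plk2*, a polo-like kinase, averaged 6.46 ± 0.469 FPKM in Ctrl testes beside 7.37 ± 0.509 FPKM in cKO testes (log2 fold change 0.17, limma adjusted p = 0.430).

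*Aen*, an exonuclease induced by p53, was at 5.41, 7.23 and 5.40 FPKM in the Ctrl testes 1, 2 and 3, while the cKO testes 1, 2 and 3 stood at 4.56, 4.02 and 4.21 FPKM, a log2 fold change of -0.41 (SE 0.124, limma adjusted p = 0.206). *Ppm1d*, which encodes the phosphatase WIP1 that switches off p53 and its kinases, was at 16.2, 17.1 and 16.1 FPKM across Ctrl 1 to 3 in turn, beside 13.2, 13.7 and 14.4 FPKM across cKO 1 to 3. Its log2 fold change was -0.24 (limma adjusted p = 0.213). The death receptor gene *Tnfrsf10b* was at 1.82 ± 0.0696 and 1.43 ± 0.159 FPKM (log2 fold change -0.22, limma adjusted p = 0.378) and the DNA damage sensor gene *Xpc* at 6.97 ± 1.07 and 5.81 ± 0.329 FPKM (-0.22, limma adjusted p = 0.406), a log2 fold change that was -0.11 without Ctrl 2. Of the p53 targets that belong to the BCL2 family, *Bbc3*, which encodes PUMA, averaged 2.90 ± 0.632 FPKM in Ctrl testes beside 3.89 ± 0.339 FPKM in cKO testes (SD, n = 3 each; log2 fold change 0.34, limma adjusted p = 0.302). *Bax* was at 40.2 ± 4.47 and 35.3 ± 4.96 FPKM and *Pmaip1*, which encodes NOXA, at 5.06 ± 0.601 and 4.43 ± 1.82 FPKM, and all of these overlapped between groups.

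Among 18 regulators of p53, 1 gene stood far from the rest. *Cdkn2a* (ENSMUSG00000044303, chr4:89274471-89294653, minus strand) encodes both p16INK4a, a kinase inhibitor, and p19ARF, which binds MDM2 and so shields p53. The table holds 1 value for the gene, and its annotated transcripts were not separated. *Cdkn2a* was at 12.0, 21.2 and 11.9 FPKM in Ctrl 1 to 3, against 2.71, 4.09 and 2.87 FPKM in cKO 1 to 3. Every cKO sample was far below every Ctrl sample, and Ctrl 2 was the highest. The cKO mean of 3.22 ± 0.752 FPKM was 21.4% of the Ctrl mean of 15.0 ± 5.30 FPKM (SD, n = 3 each). The log2 fold change of *Cdkn2a* was -1.89 (SE 0.232, 95% interval -2.44 to -1.35) and limma's adjusted p of 0.062 was just short of the threshold.

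*Cdkn2a* passed the threshold under several settings. Limma's adjusted p was 0.016 among protein-coding genes alone, where 1.33% of genes were called lower, and 0.042 without Ctrl 2, where 0.0926% were and the log2 fold change was -1.63. It was 0.035 with limma voom on the recovered reads, where 0.376% of genes were called lower, and 0.016 with the replicate number as a block, where 0.518% were. Same-numbered samples hardly deviated together, so the design gives no pairing for that block. Over all alternatives the adjusted p ran from 0.016 to 0.225, with 50 to 472 reads a sample. The germ-cell markers, given above for each sample, had their highest Ctrl value in Ctrl 2 and their highest cKO value in cKO 2, the same samples as *Cdkn2a*. Their part in the *Cdkn2a* difference was not tested.

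**Figure D3:**
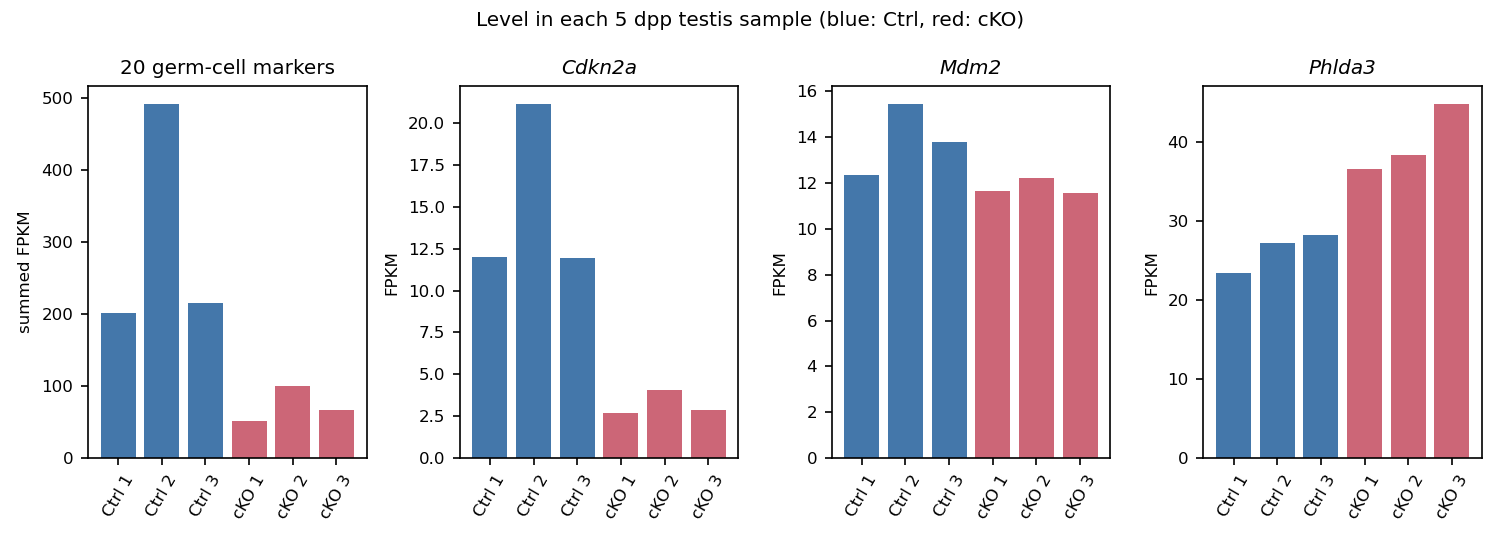
Bars show the summed FPKM of 20 germ-cell markers and the FPKM of *Cdkn2a*, *Mdm2* and *Phlda3* in each Ctrl (blue) and cKO (red) testis, each axis starting at 0. The markers and *Cdkn2a* are low in all 3 cKO samples and highest in Ctrl 2, *Mdm2* differs far less between groups, and *Phlda3* is higher in all 3 cKO samples.

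The other regulators lay closer to 0. Of the 18, all tested, 10 had a negative and 8 a positive log2 fold change, with a median of -0.05. Limma called 0 of them, beside 0% of all tested genes. At an unadjusted p under 0.05 limma counted 4 lower (*Cdkn2a*, *Prkdc*, *Atm* and *Chek1*), where 9.31% of all tested genes were. It counted 1 higher (*Rpl11*), where 6.6% were. *Prkdc*, whose groups overlapped, had a log2 fold change of -0.43 (limma adjusted p = 0.264). The groups did not overlap for 5 that were lower (27.8%, beside 12.8% of all tested genes) and 1 that was higher (5.56%, beside 10.3%). The damage kinase gene *Atm* averaged 6.16 ± 1.36 FPKM in Ctrl testes beside 4.01 ± 1.22 FPKM in cKO testes (log2 fold change -0.53, limma adjusted p = 0.300), and the difference was -0.32 without cKO 3. The checkpoint kinase gene *Chek1* was at 12.4 ± 2.35 and 9.66 ± 0.511 FPKM (-0.31, limma adjusted p = 0.305), and *Chek2* at 8.15 ± 1.65 and 6.28 ± 0.1004 FPKM (-0.31, limma adjusted p = 0.318), and without Ctrl 2 their log2 fold changes were -0.18 and -0.18. *Usp7*, which encodes a deubiquitinase of MDM2 and p53, was at 28.3 ± 1.90 and 25.5 ± 0.915 FPKM (-0.15, limma adjusted p = 0.433), and its log2 fold change was -0.09 without Ctrl 2. *Rpl11*, a ribosomal protein gene whose product can bind MDM2, was at 246.3 ± 10.5 and 289.0 ± 10.7 FPKM (0.23, limma adjusted p = 0.289). All SDs are over n = 3 samples. *Mdm4*, the partner of *Mdm2*, overlapped between groups. A p53 decamer was found in the promoter of 1 of the 17 regulators with a promoter in the table.

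**Figure D4:**
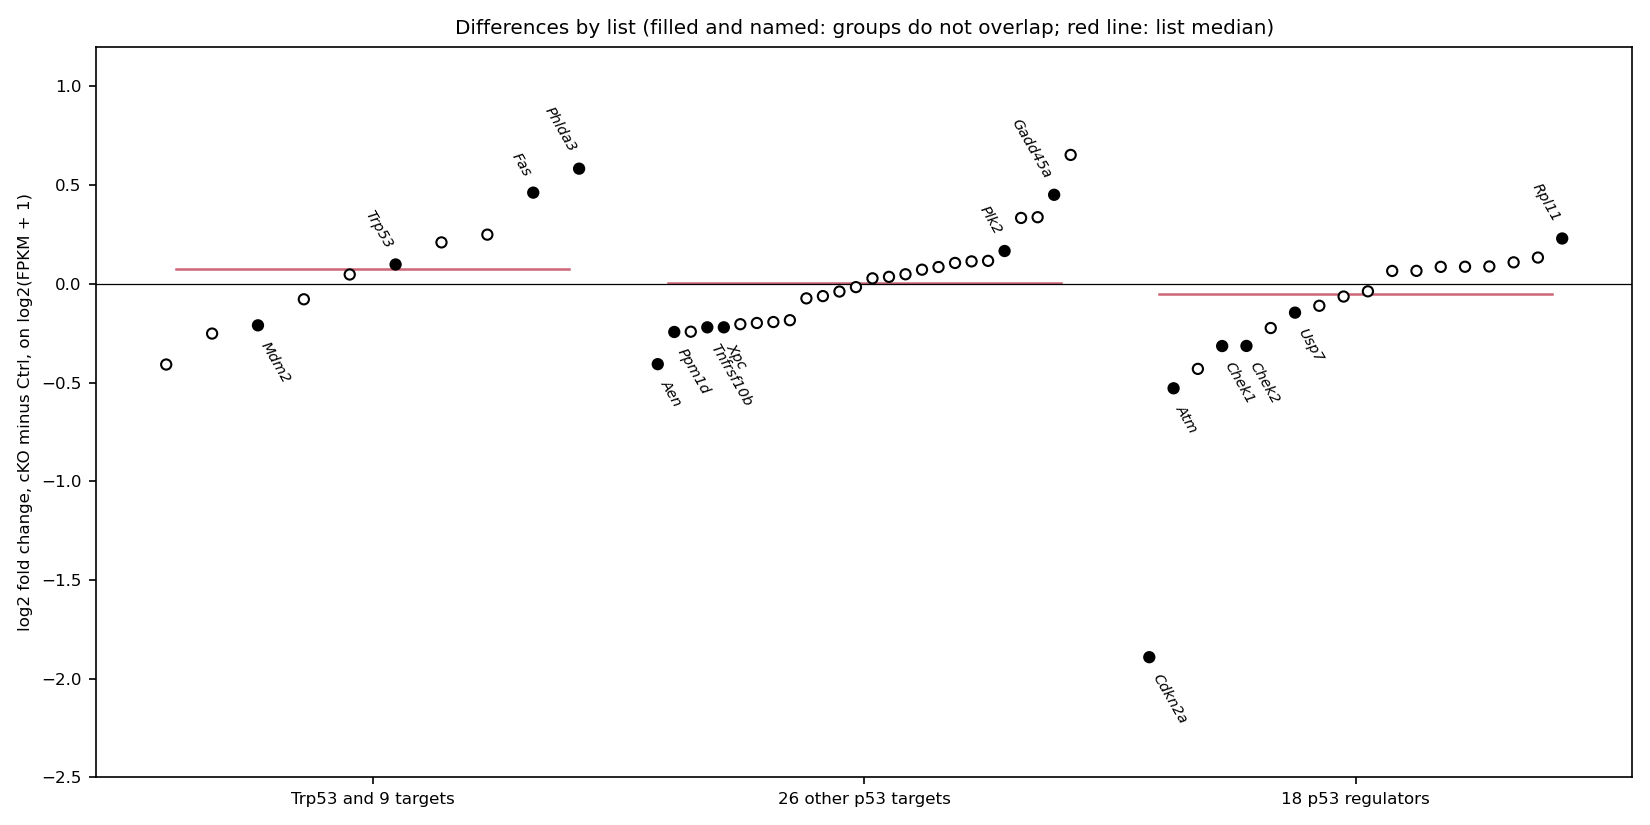
Log2 fold change, cKO minus Ctrl, on the log2(FPKM + 1) scale for *Trp53* with its 9 targets, 26 other p53 targets and 18 p53 regulators, sorted within each list, where filled and named points mark genes whose groups did not overlap and red lines mark the list medians. The medians of 0.07, 0.0059 and -0.05 lie near 0, and *Cdkn2a* stands apart at -1.89.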

How the data were processed

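RNA sequencing of whole testes from 3 Ctrl and 3 cKO mice at 5 dpp was used, and the sample titles gave group and replicate number. As the study's methods state, the authors aligned reads with HISAT2, summarised them per gene with featureCounts and compared groups with DESeq2. The submitters' processing notes name HISAT2 2.0.5 and mm10. The authors deposited FPKM values, scaled between libraries, for 54532 genes with lengths and coordinates. The annotation release and the strand setting of the counting were not given in the sources used here, so reads of overlapping antisense genes may be mixed. In all 6 columns, 100% of values above 0 gave whole reads within 0.01 once multiplied by gene length and divided by the step of the sample. For a 1 kb gene, 3 reads correspond to 0.158 to 0.194 FPKM, a floor that covers counting error only.

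Limma 3.58.1 in R 4.3.3 was fitted to log2(FPKM + 1) of the 16206 genes that averaged 0.5 FPKM or more, with group alone as a term, a mean-variance trend and Benjamini-Hochberg adjustment at 0.05. A pseudocount of 1 understates the fold changes of low genes. The fit was tested on simulated data in which 200 of 16206 genes were changed by a log2 of 2. It recovered 85% of them, and 3.95% of its calls were false. These changes were far larger than those of the members, so the simulation cannot tell how often changes of the members' size would be found. In the measured samples the same fit called 0 genes. Germ-cell markers there included *Stra8* at a log2 fold change of -2.98 (limma adjusted p = 0.124) and *Dazl* at -2.25 (limma adjusted p = 0.101). Whether the 85% holds at the spread of the measured samples was not tested. The alternatives were 0.1 as pseudocount, a filter at 1 FPKM or none, TPM, quantile normalization, no trend, protein-coding genes alone, the replicate number as a block, limma voom on recovered reads and leaving out each sample.

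The members and the lists of other targets, regulators and cell markers were chosen with earlier results of these data known. Named were all members and *Srsf1*, each other target and regulator whose groups did not overlap, the p53 family, genes overlapping a member and the 3 protein-coding genes most like *Trp53* and *Cdkn1a* over the samples, of which those for *Cdkn1a* are not reported here. *Bbc3*, *Bax*, *Pmaip1*, *Mdm4*, *Prkdc* and *Wrap53* were named after their values were seen. Transcripts of GENCODE mouse release M21 were used to count shared 50-base stretches, and promoters came from RefSeq.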

Additional observations from a re-analysis of the deposited data

How the results depend on the processing

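Apart from *Srsf1*, 324 of 330 values of single genes under 15 alternatives kept their direction and side of the threshold, and the others were 1 of *Phlda3*, 4 of *Cdkn2a* and 1 of *Eda2r*. *Srsf1* passed the threshold with TPM (-0.86, limma adjusted p = 0.036), with protein-coding genes alone (-0.85, 0.016), with the replicate block (-0.85, 0.033) and with voom (-0.86, 0.025). Leaving out 1 sample gave -0.91 to -0.81 for *Srsf1*. The count of members called higher was 1 (*Phlda3*) with protein-coding genes alone and 0 otherwise, and the count of regulators called was 1 (*Cdkn2a*) with protein-coding genes alone, the replicate block and voom, and 0 to 1 when 1 sample was left out, with the call made without Ctrl 2. *Eda2r* turned to -0.035 without cKO 1 (range 0.13 to -0.035 over the 6 samples left out), and the cause was not tested. The median of the members stayed between 0.036 and 0.092. Over all genes, 176 were called lower and 37 higher with protein-coding genes alone, 61 and 22 with voom, and 84 and 14 with the replicate block. TPM called 1 and 4, the fit without a trend 0 and 1, without Ctrl 2 15 and 3, and without Ctrl 3 2 and 3, and the rest none. Same-numbered samples deviated together with correlations of only 0.066, 0.016 and 0.088, so the numbers were not taken as pairs. Counts of 27 to 63 reads limit *Fas*, and 58 to 122 limit *Cdkn1a*.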

Other observations

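*Wrap53*, the neighbour of *Trp53* on the opposite strand (chr11:69561758-69580255, minus strand, GRCm38), was at 9.65, 12.6 and 9.82 FPKM in the Ctrl testes 1, 2 and 3, while the cKO testes 1, 2 and 3 stood at 7.80, 7.11 and 9.32 FPKM. It encodes a protein of Cajal bodies that telomerase RNA depends on. All cKO samples were below all Ctrl samples, as for 12.8% of all tested genes, and the groups came close at 9.32 FPKM in cKO 3 and 9.65 FPKM in Ctrl 1. This is the opposite side from *Trp53*, but a link between the genes was not tested. *Wrap53* was looked at after its values were seen. The genes inside other members, *Gm12981* in *Sesn2* and *Gm27818* in *Fas*, were listed at no more than 0.715 FPKM and at 0.

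The genes whose profile over the 6 samples was most like that of *Trp53*, by the root-mean-square difference of centred log2(FPKM + 1) values among 13203 protein-coding genes, were *Prx* (0.0163), *Lonp1* (0.0186) and *Rab28* (0.0194). The profile of *Trp53* was nearly flat, and 2505 genes lay within 0.1 of it.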
